A study of Homo sapiens with 6 samples.

Results

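Integrins and laminins are the receptor and ligand sides of a cell's attachment to basement membrane. An integrin is a pair of an alpha and a beta chain that spans the plasma membrane, binds matrix outside and links through talin and kindlin to actin inside. A laminin is a cross-shaped secreted trimer of an alpha, a beta and a gamma chain, and its alpha chain carries the main sites for integrins and dystroglycan. In epithelia the pair of alpha-6 and beta-4 anchors hemidesmosomes to laminin, while alpha-V with beta-3 or beta-5 reads RGD sequences in vitronectin, fibronectin and osteopontin. The genes described here are the integrin and laminin subunit genes read by HG-U133 Plus 2.0 arrays, 35 of the 19775 genes that a probe set naming 1 gene measured. Membership went by symbol (ITGA, ITGB, LAMA, LAMB or LAMC with a subunit code), not by values, and gave 25 integrin and 10 laminin genes. The families themselves were chosen with earlier results of these data known. The pseudogene LAMB2P1 and antisense or divergent transcripts named after a subunit were not counted as members.

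The samples were cells labelled HepG2, a human line from a liver tumour, transfected with an siRNA against RNF43 (3 arrays) or with a negative control siRNA (3 arrays), both by lipid transfection, with RNA extraction after 48 h. RNF43 encodes a transmembrane E3 ubiquitin ligase whose targets are Frizzled receptors, and it dampens Wnt signalling. Each group rests on a single siRNA duplex. The antisense strands, which the RNA interference machinery uses to find its targets, are shown here with bases 2 to 8, the seed, in capitals.
RNF43 siRNA antisense: aUAAUAGCuuucuguucugtt
control siRNA antisense: aCGUGACAcguucggagaatt
The duplexes thus carried different seeds, and where these match transcripts was not analysed here.

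RNF43 itself went against the label. On its single probe set its log2 signal was 8.19, 8.22 and 8.41 on the RNF43 siRNA arrays, against 7.65, 7.79 and 7.45 on the control siRNA arrays. That was 1.56-fold higher (log2 difference 0.64, SE 0.14, limma adjusted p = 0.0098), with an exact two-sided permutation p of 0.1, the smallest that 3 against 3 arrays allow, and it no longer passed with both arrays numbered 3 left out (adjusted p = 0.0537). Directions below are therefore those of the arrays labelled RNF43 siRNA, and no loss of RNF43 mRNA was measured behind them. The cell label was checked as well. Of 6 hepatocyte markers with a probe set, 1 lay above the filter for low signal at 5.83. That was AFP, at 6.41 ± 0.26 on RNF43 siRNA arrays and 7.01 ± 0.11 on control siRNA arrays, and albumin read 4.24 ± 0.07 on RNF43 siRNA arrays and 4.19 ± 0.32 on control siRNA arrays (SD, n = 3). Of 8 fibroblast and stellate cell markers 6 lay above the filter, 4 of them lower with the RNF43 siRNA and 0 higher. Mean log2 signals over the 6 arrays ran from 3.45 to 6.71 for the hepatocyte markers. For the fibroblast and stellate markers they ran from 4.04 to 13.26 (LUM), with COL1A1, DCN and FAP at 10.51, 10.38 and 10.01. Hepatocyte markers were thus low in cells labelled HepG2, and whether the label is right was not tested. The summed linear signal of all 8 fibroblast and stellate markers was 12459 to 13571 with the RNF43 siRNA and 15859 to 16049 with the control siRNA. LUM, the brightest of them, did not pass (limma adjusted p = 0.0926). Of the leukocyte, platelet and endothelial markers, 1 in each list lay above the filter (LCP1, GP1BA and PECAM1) and none of these 3 passed the test. The part of these marker shifts in the results below was not tested, and fewer cells of a type cannot be told apart from less RNA per cell in such bulk RNA.

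Of the 35 members, 23 had a mean log2 signal above the filter and were tested, and 12 were not. With the RNF43 siRNA, 6 of the 23 were higher and 3 lower (limma with Benjamini-Hochberg adjustment over 11853 genes, adjusted p under 0.05), and 14 did not pass. Across all tested genes 22.6% passed, 11.5% higher and 11.1% lower. The group values did not overlap for 12 of the 23 members, while 38.9% of all tested genes had groups that did not overlap. The median log2 difference was 0.07 over the tested members and -0.0028 over all tested genes. Changes ran both ways within each protein family, with ITGB4 and ITGB5 higher and ITGAV and ITGB3 lower among 14 tested integrin genes, and LAMC1, LAMA5, LAMB3 and LAMB1 higher and LAMA4 lower among 9 tested laminin genes. Titles call the arrays biological replicates but name no separate cultures, and p-values reflect only the variation among these 6 arrays, which may be partly technical. The number of called members was 5 without RNF43 siRNA replicate 1, without RNF43 siRNA replicate 2 or without control siRNA replicate 1.

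**Figure D1:**
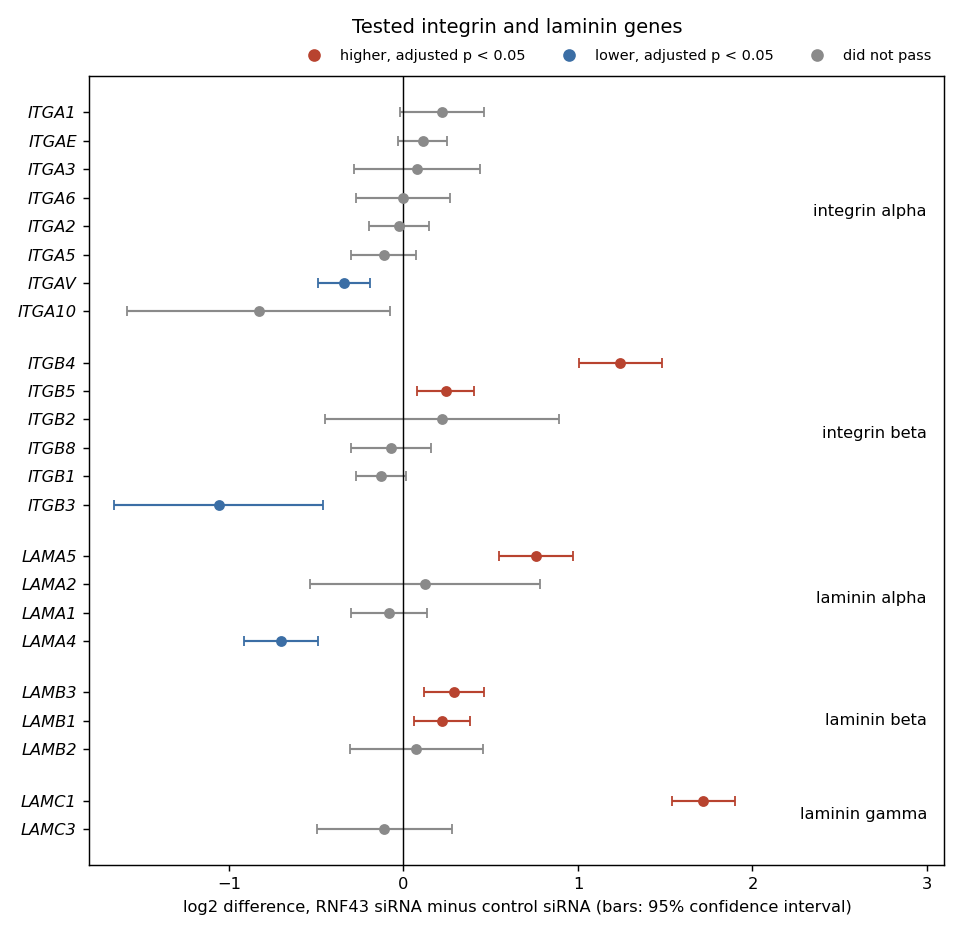
Log2 difference (RNF43 siRNA minus control siRNA, x axis) of the 23 tested integrin and laminin genes, grouped by chain, with 95% confidence intervals from limma. Red and blue points passed the adjusted threshold as higher or lower, and LAMC1 (1.72) and ITGB4 (1.24) lie farthest to the right and ITGB3 (-1.06) farthest to the left.

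Among the tested integrin genes, ITGB4 had the largest difference. It encodes the beta-4 chain, whose long cytoplasmic tail ties laminin-bound alpha-6 beta-4 to the keratin network in hemidesmosomes. Its log2 signal was 9.06, 9.01 and 9.01 on the RNF43 siRNA arrays, against 7.77, 7.79 and 7.78 on the control siRNA arrays. The arrays of each group lay within a narrow band and the bands were far apart. ITGB4 rose 2.37-fold (log2 difference 1.24, SE 0.11, adjusted p = 3.59e-05) and passed in all 17 refits under another setting that tested it, and at both stricter thresholds (adjusted p under 0.01 and 1.5-fold). All of these refits kept the same probe set, which ends in _s_at. With the mean of its probe sets, or without those ending in _x_at or _s_at, ITGB4 lay below the filter and was not tested. Of its 5 probe sets 2 others were tested, and neither passed in a fit over all 22660 tested probe sets that name 1 gene. In that fit 9 of the 43 tested member probe sets passed, 5 higher and 4 lower, while 17.7% of all probe sets passed, 9.01% higher and 8.65% lower. Both had positive log2 differences, 0.89 (SE 0.38) and 0.49 (SE 0.35), at dimmer mean signals of 6.27 and 6.20. ITGA6, the only alpha chain known to pair with beta-4 and itself a laminin receptor chain, had log2 signals of 10.89 to 11.33 on RNF43 siRNA arrays and 10.93 to 11.30 on control siRNA arrays. Its groups overlapped, and the 95% confidence interval of its log2 difference was -0.27 to 0.27 (adjusted p = 0.985).

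The alpha-V chain and its partners split. ITGAV, shared by several RGD-binding pairs, read 12.10, 11.99 and 12.15 on the RNF43 siRNA arrays, against 12.41, 12.39 and 12.47 on the control siRNA arrays. Every RNF43 siRNA value lay below every control value, and ITGAV fell 1.27-fold (log2 difference -0.34, SE 0.07, adjusted p = 0.00508), a call kept in all 19 refits, at a size below the stricter threshold of 1.5-fold. ITGB3, the beta chain of the vitronectin receptor and of the platelet fibrinogen receptor, read 5.92, 6.26 and 6.97 with the RNF43 siRNA, against 7.43, 7.33 and 7.57 with the control siRNA. The groups did not overlap, but the RNF43 siRNA values were spread widely (SD 0.53, against 0.12 for control siRNA). ITGB3 was 2.08-fold lower (log2 difference -1.06, SE 0.27, adjusted p = 0.0176). That call was lost without RNF43 siRNA replicate 1 (log2 difference -0.83, adjusted p = 0.0535), without RNF43 siRNA replicate 2 (adjusted p = 0.0638) or without control siRNA replicate 1 (adjusted p = 0.0512). Of its 7 probe sets 1 other was tested, and its log2 difference of -0.20 (SE 0.35) missed the threshold. The other 5 lay below the filter, 4 with differences of 0.20 to 0.74 and 1 at -0.89.

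ITGB5, another alpha-V partner and a vitronectin receptor chain, went the other way. It read 11.37, 11.37 and 11.27 on the RNF43 siRNA arrays, against 11.09, 11.18 and 11.02 on the control siRNA arrays. These groups did not overlap either, and ITGB5 was 1.18-fold higher (log2 difference 0.24, SE 0.07, adjusted p = 0.0375). The call was lost at both stricter thresholds and in 8 of 19 refits, among them 5 of the 6 that left out an array, where adjusted p was 0.0512 to 0.121. Its 3 other tested probe sets gave log2 differences of 0.43, 0.18 and -0.02, and none passed. ITGB8, an alpha-V partner that activates latent TGF-beta, had a log2 difference of -0.07 with a 95% confidence interval of -0.30 to 0.16.

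ITGB1, the beta chain shared by most matrix-binding pairs, was read by 7 probe sets. On the brightest its values were 14.37, 14.27 and 14.36 with the RNF43 siRNA, against 14.41, 14.41 and 14.57 with the control siRNA. The groups did not overlap, yet the log2 difference of -0.13 (SE 0.07) did not pass (adjusted p = 0.194). The next probe sets in brightness gave -0.37 (SE 0.15, adjusted p = 0.132) and -0.44 (SE 0.08, adjusted p = 0.00759 over all tested probe sets), so that 1 of its 4 tested probe sets was lower. Averaging all 7 probe sets of ITGB1 gave a log2 difference of -0.65 (adjusted p = 0.133), a mean that takes in 3 probe sets below the filter, 1 of them at -3.35.

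**Figure D2:**
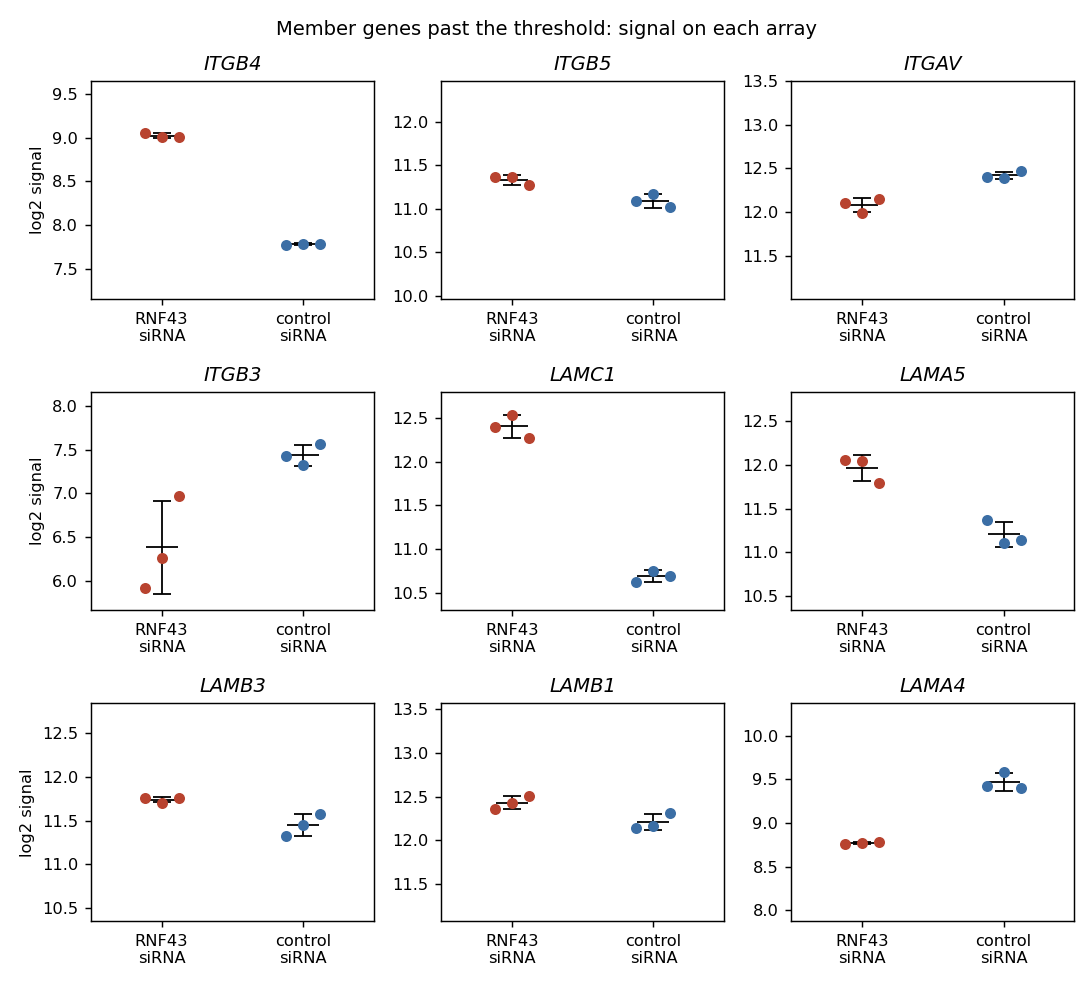
Log2 signal (y axis) of the 9 members that passed the threshold, with the RNF43 siRNA arrays on the left in red and the control siRNA arrays on the right in blue. Points are arrays, bars the mean ± SD (n = 3), and every panel spans the same log2 range. The groups do not overlap in any panel, and ITGB3 has the widest spread.

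None of the other tested alpha chains passed. ITGA1 and ITGA2, collagen receptor chains, had log2 differences of 0.22 (95% confidence interval -0.02 to 0.46) and -0.03 (-0.20 to 0.15). ITGA3, a laminin receptor chain, and ITGA5, the fibronectin receptor chain, had 0.08 (-0.29 to 0.44) and -0.11 (-0.30 to 0.07). All 3 tested probe sets of ITGA1 gave 0.22 to 0.28, none past the threshold, and ITGA1 passed when the replicate number was entered as a block (adjusted p = 0.0202). ITGAE, the alpha chain of a lymphocyte E-cadherin receptor, read 12.38, 12.31 and 12.42 on the RNF43 siRNA arrays and 12.26, 12.23 and 12.29 on the control siRNA arrays. Its groups did not overlap, with a log2 difference of 0.11 (SE 0.06, adjusted p = 0.253). ITGA10, a collagen receptor chain of cartilage, read 5.94, 5.28 and 5.14 with the RNF43 siRNA, against 6.20, 6.16 and 6.49 with the control siRNA. It passed the filter only through the control siRNA arrays, and its log2 difference of -0.83 (SE 0.34), the largest of the tested alpha chains, had an adjusted p of 0.111. It passed without an intensity trend in the fit (adjusted p = 0.0466). ITGB2, the shared beta chain of leukocyte integrins, had a log2 difference of 0.22 (95% confidence interval -0.45 to 0.89).

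The 12 members below the filter had mean log2 signals of 2.97 to 5.76 and were not tested. They were ITGA11, ITGA2B, ITGA4, ITGA7, ITGA8, ITGA9, ITGAD, ITGAL, ITGAM, ITGAX, ITGB7 and LAMB4. The list holds the platelet chain ITGA2B and the leukocyte chains ITGAD, ITGAL, ITGAM and ITGAX. Among these 12, group SDs reached 2.45 log2 units. ITGAD and ITGAM had 1 group mean above the filter, that of the control siRNA arrays. ITGA11, a collagen receptor chain of mesenchymal cells, was the member among the 12 with groups that did not overlap. It read 4.63, 4.71 and 3.39 on RNF43 siRNA arrays and 5.18, 5.17 and 5.83 on control siRNA arrays. Of all tested genes, 38.9% had groups that did not overlap. The other ITGA11 probe sets, also below the filter, had overlapping groups and log2 differences of 0.86 and 2.65, in the opposite direction.

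The laminin genes gave the largest member difference and the least settled. LAMC1 encodes gamma-1, the gamma chain of most laminin trimers. On its brightest probe set its values were 12.40, 12.54 and 12.28 with the RNF43 siRNA, against 10.62, 10.75 and 10.69 with the control siRNA. LAMC1 was 3.29-fold higher there (log2 difference 1.72, SE 0.08, adjusted p = 1.99e-06), with groups far apart. The other LAMC1 probe set read 11.09, 10.99 and 10.97 with the RNF43 siRNA, against 11.20, 11.17 and 11.12 with the control siRNA. It went the opposite way by a small amount, with a log2 difference of -0.15 (SE 0.07, adjusted p = 0.181 over all tested probe sets). The probe set that rose is the brightest only when the RNF43 siRNA arrays are counted. With the brightest probe set chosen on the control siRNA arrays, LAMC1 had a log2 difference of -0.15 (adjusted p = 0.16) and 8 members passed in place of 9. The gap of 1.87 between its probe sets was reached by 18 of the 6066 genes with several tested probe sets (0.297%), whose median gap was 0.30. The direction of LAMC1 thus depends on which of its 2 probe sets is read.

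**Figure D3:**
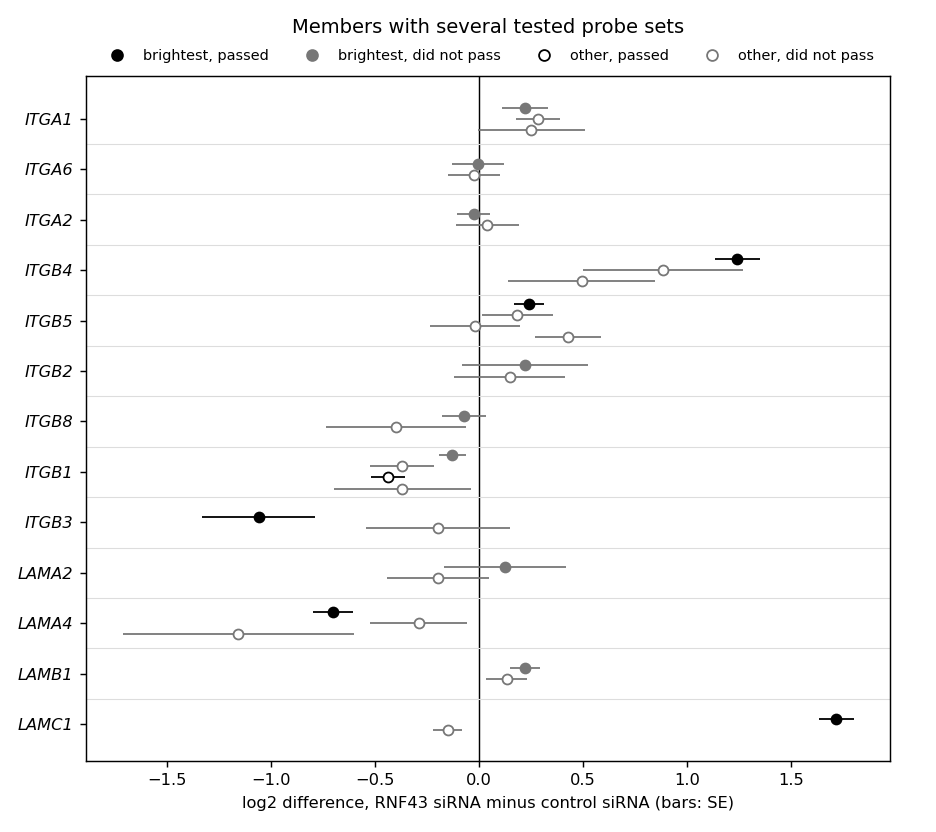
Log2 difference (RNF43 siRNA minus control siRNA, x axis, bars SE) of every tested probe set of the 13 members that have more than 1. Filled points are the brightest probe set of a gene and black marks those past the threshold in the fit over all tested probe sets, where the brightest LAMB1 probe set did not pass (adjusted p = 0.0632). The LAMC1 probe sets lie at 1.72 and -0.15, and those of ITGB1 all lie below 0.

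Of the 4 tested laminin alpha chains, which set receptor binding, 1 was higher and 1 lower. LAMA5, the alpha-5 chain of epithelial basement membranes, read 12.06, 12.04 and 11.79 on the RNF43 siRNA arrays, against 11.37, 11.11 and 11.15 on the control siRNA arrays. All RNF43 siRNA values were above all control values, and LAMA5 rose 1.69-fold (log2 difference 0.76, SE 0.10, adjusted p = 3.75e-04), a call kept in all 18 refits that tested it and at both stricter thresholds. LAMA5 rests on 1 probe set, which ends in _s_at, so the refit without such probe sets did not test it. A further probe set annotated to both LAMA5 and its antisense transcript LAMA5-AS1 had a log2 difference of -0.28, with SE 0.18 and adjusted p = 0.347 in a fit over all 27306 tested probe sets, named or not, of which 15.5% passed. LAMA4, the alpha-4 chain typical of vessel walls and mesenchymal cells, read 8.76, 8.77 and 8.79 on the RNF43 siRNA arrays, against 9.43, 9.59 and 9.40 on the control siRNA arrays. The RNF43 siRNA arrays were almost identical and lay below all control arrays, and LAMA4 fell 1.62-fold (log2 difference -0.70, SE 0.10, adjusted p = 6.22e-04). Its 2 other tested probe sets gave -0.29 and -1.16 without passing, and the 2 below the filter -0.54 and -0.49. Averaged over probe sets, the LAMA4 log2 difference was -0.64 (adjusted p = 0.103). LAMA1, the alpha-1 chain of embryonic basement membranes, and LAMA2, the muscle and nerve alpha-2 chain, had 95% confidence intervals of -0.30 to 0.13 and -0.53 to 0.78.

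The beta chains changed less. LAMB3, a chain of the skin-type laminin of hemidesmosomes, read 11.76, 11.70 and 11.76 with the RNF43 siRNA, against 11.33, 11.45 and 11.57 with the control siRNA. The groups lay close without overlapping, and LAMB3 was 1.22-fold higher (log2 difference 0.29, SE 0.08, adjusted p = 0.021). The call was lost at both stricter thresholds and in 5 of 19 refits, 4 of them without 1 array (adjusted p 0.0529 to 0.097) and the other without an intensity trend. LAMB1, the widespread beta-1 chain, read 12.36, 12.42 and 12.51 with the RNF43 siRNA, against 12.14, 12.17 and 12.31 with the control siRNA. It stood at the edge of the threshold (log2 difference 0.22, SE 0.07, adjusted p = 0.0493), and both stricter thresholds and 9 of 19 refits lost it. LAMB2, the beta-2 chain of nerve-muscle junctions and kidney glomeruli, and LAMC3 had log2 differences of 0.07 (SE 0.17) and -0.11 (SE 0.17).

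Subunits reach the cell surface or the matrix as complexes, so the calls were set side by side for pairs and trimers known from textbooks. Of 24 integrin pairs 11 had both genes tested. ITGAV and ITGB3 were the pair in which both genes were lower, and ITGAV and ITGB5 the pair in which the genes went opposite ways. ITGA6 and ITGB4 had a call for the beta chain alone. Of 8 laminin trimers 7 had all genes tested. All 3 genes of laminin-511 (LAMA5, LAMB1 and LAMC1) were higher with the RNF43 siRNA, while the laminin-411 genes combined a lower LAMA4 with higher LAMB1 and LAMC1. Each trimer with a gamma-1 chain rests on the LAMC1 probe set named above, and with the other one no trimer would hold 3 called chains. LAMB1 passed narrowly (limma adjusted p = 0.0493), and 9 of 19 refits lost its call. These are transcript differences, and protein or assembled complexes were not measured.

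**Figure D4:**
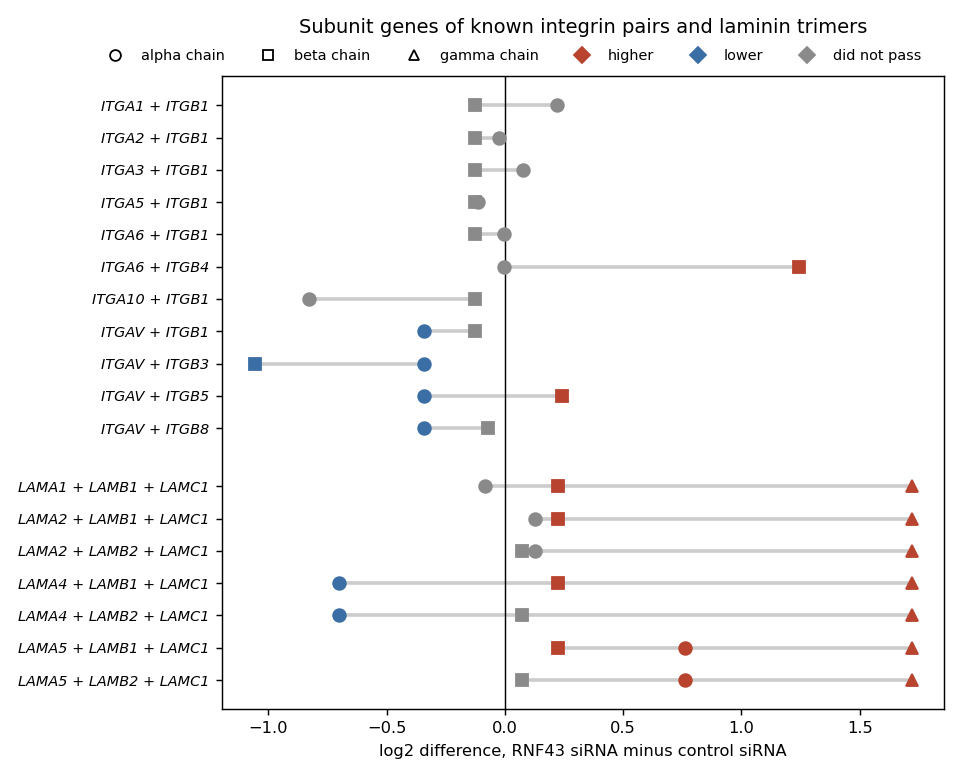
Log2 difference (RNF43 siRNA minus control siRNA, x axis) of the subunit genes of 11 integrin pairs and 7 laminin trimers with all genes tested. Each row is a complex, circles are alpha, squares beta and triangles gamma chains, and red or blue marks a gene past the threshold. The laminin-511 row (LAMA5, LAMB1 and LAMC1) has 3 red points, and the ITGAV and ITGB5 row a point on each side of 0. LAMB1 passed narrowly (limma adjusted p = 0.0493), and LAMC1 is drawn from 1 of its 2 probe sets.

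Promoter sequence was at hand for 24 of the 35 members and 7 of the 9 that passed, ITGB3 and ITGB4 not among them. The promoters of the laminin-511 genes, called higher with the limits given above for LAMB1 and LAMC1, are printed with that of LAMA4, which was lower. They are from RefSeq on GRCh38.p14, each from 250 bases before to 50 after the start of the gene, 5′ to 3′ on the gene's strand. Capitals mark GC boxes, the letters GGGCGG on either strand, to which SP1-type factors bind.
LAMA5 chr20:62367263-62367562 minus strand: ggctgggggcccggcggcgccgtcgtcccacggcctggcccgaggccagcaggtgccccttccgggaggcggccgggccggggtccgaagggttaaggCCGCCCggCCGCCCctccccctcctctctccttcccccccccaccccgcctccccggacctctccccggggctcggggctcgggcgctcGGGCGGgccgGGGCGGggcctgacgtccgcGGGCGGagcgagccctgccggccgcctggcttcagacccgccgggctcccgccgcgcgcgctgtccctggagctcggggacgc
LAMB1 chr7:108003112-108003411 minus strand: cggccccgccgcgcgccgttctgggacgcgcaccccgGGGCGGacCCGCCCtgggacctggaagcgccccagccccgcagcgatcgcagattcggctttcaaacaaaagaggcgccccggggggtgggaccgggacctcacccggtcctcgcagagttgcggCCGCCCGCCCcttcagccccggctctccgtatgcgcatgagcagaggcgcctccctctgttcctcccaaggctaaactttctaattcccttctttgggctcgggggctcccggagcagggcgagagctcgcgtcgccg
LAMC1 chr1:183023170-183023469 plus strand: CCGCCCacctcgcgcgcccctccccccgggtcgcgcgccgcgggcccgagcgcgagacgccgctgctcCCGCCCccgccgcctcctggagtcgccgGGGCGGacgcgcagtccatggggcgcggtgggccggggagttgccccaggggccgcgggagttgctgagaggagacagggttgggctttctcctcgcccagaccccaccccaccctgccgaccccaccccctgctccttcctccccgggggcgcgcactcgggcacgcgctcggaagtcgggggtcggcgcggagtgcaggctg
LAMA4 chr6:112254518-112254817 minus strand: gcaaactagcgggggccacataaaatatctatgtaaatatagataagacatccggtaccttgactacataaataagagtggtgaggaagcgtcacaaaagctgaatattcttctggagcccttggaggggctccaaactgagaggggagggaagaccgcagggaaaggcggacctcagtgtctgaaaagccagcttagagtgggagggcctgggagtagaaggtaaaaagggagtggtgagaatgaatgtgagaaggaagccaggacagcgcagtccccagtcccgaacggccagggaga
The LAMA5 promoter held 5 GC boxes, LAMB1 4, of which a pair overlap, LAMC1 3 and LAMA4 0. GC boxes occurred in 45% of all 35116 promoters in the table. The GC content was 82.7% for LAMA5, 79.0% for LAMC1 and 71.0% for LAMB1, against 51.3% for LAMA4, and the median of all promoters was 58.7%. These 4 were picked for their calls, and by GC content other members did not follow the same order. ITGAV, called lower, had 70.7% and 41.3% in its promoters and, like LAMA4, no GC box. LAMB3, called higher, had 53.7% to 61.3% with 1 GC box in each. ITGB5, also called higher, had 75.7%, 59.7% and 49.7% with 3, 2 and 2 GC boxes. Whether GC boxes go with the calls was not tested. ITGA2, which did not pass, had 72.7% with 4 GC boxes. Letters of the AP-1 motif (TGANTCA), the TEAD motif (GGAATG) and the TATA box (TATAAA), searched on both strands, were in none of these 4 windows. They occurred in 7.71%, 14% and 11.5% of all promoters. Matches describe the letters in these windows and not bound sites.

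Beyond the subunits, 4 lists of partner genes were read in the same way, against the background of 22.6% given above. Of the integrin activators, adaptors and focal adhesion genes, 42 of 51 listed were tested, 5 were higher and 6 lower, with a median log2 difference of -0.02. FERMT2, the kindlin-2 gene whose product binds integrin beta tails and helps to activate them, averaged 12.54 ± 0.03 on RNF43 siRNA arrays and 11.52 ± 0.05 on control siRNA arrays (SD, n = 3). It rose 2.04-fold (adjusted p = 5.41e-06), and its 2 other tested probe sets were higher as well. All of these end in _s_at or _x_at, so the refit without such probe sets did not test FERMT2. PARVA, which encodes alpha-parvin of the complex around integrin-linked kinase, rose 1.33-fold (adjusted p = 0.013), with 2 of 6 other tested probe sets also higher, and CRKL, an adaptor of focal adhesion signalling, rose 1.27-fold (adjusted p = 0.0141). The other tested CRKL probe set had a log2 difference of 0.02, and the call was lost in 4 of 19 refits. RSU1, a partner of PINCH in that kinase complex, fell 1.48-fold on its brightest probe set (adjusted p = 4.66e-04). Its other tested probe set had a log2 difference of 0.05 and did not pass. The mean over all RSU1 probe sets, which takes in some below the filter, was 0.66 (adjusted p = 0.139). The count of 11 called genes became 4 without RNF43 siRNA replicate 2, 5 without control siRNA replicate 1, 2 without control siRNA replicate 2, 6 without RNF43 siRNA replicate 1 and 7 without control siRNA replicate 3.

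Of the hemidesmosome and tetraspanin partners, 13 of 14 listed were tested, 4 were higher and 1 lower, with a median of 0.10. Of the hemidesmosome genes DST was 1.18-fold higher (adjusted p = 0.0241) and PLEC did not pass (log2 difference -0.30, adjusted p = 0.105). COL17A1 had no probe set naming 1 gene. PLAUR, the urokinase receptor, which binds integrins at the cell surface, had its brightest probe set 1.37-fold higher (adjusted p = 0.00443). Of its 2 other tested probe sets 1 was higher too (log2 difference 0.36, adjusted p = 0.00932 over all tested probe sets). Suffixes _x_at and _s_at mark probe sets that may hybridise to other transcripts. On the probe set left when these were dropped PLAUR was lower (log2 difference -0.32, adjusted p = 0.0476). In the fit over all tested probe sets that probe set did not pass (adjusted p = 0.0668). The tetraspanin gene TSPAN4 rose 1.32-fold (adjusted p = 0.00494) and BSG, which encodes basigin, 1.22-fold (adjusted p = 0.0164). Their tested probe sets all carry these suffixes, and the refit without such probe sets tested neither gene. TSPAN8, another tetraspanin gene, averaged 13.32 ± 0.09 with the RNF43 siRNA and 13.85 ± 0.05 with the control siRNA (SD, n = 3) and fell 1.44-fold (adjusted p = 3.63e-04). The count of 5 called genes was 3 without RNF43 siRNA replicate 2 or without control siRNA replicate 2.

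Of the laminin receptors outside the integrins and basement membrane partners, 22 of 35 listed were tested, 4 were higher and 4 lower, with a median of 0.04. SDC4, a heparan sulfate co-receptor of focal adhesions, averaged 10.87 ± 0.10 on RNF43 siRNA arrays and 11.61 ± 0.02 on control siRNA arrays (SD, n = 3) and fell 1.67-fold (adjusted p = 8.55e-05). COL4A1, the collagen alpha-1(IV) chain that forms the other network of basement membranes, fell 1.53-fold (adjusted p = 1.32e-04), and its other tested probe set was lower too. NTN4, a netrin that binds the laminin gamma-1 chain, fell 1.48-fold (adjusted p = 0.00171). PXDN, whose enzyme crosslinks collagen IV, rose 1.38-fold (adjusted p = 0.00152) with its other tested probe set.

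Of the integrin ligands, secreted or on cell surfaces, 25 of 42 listed were tested, 2 were higher and 5 lower, with a median of -0.05. The disintegrin and metalloprotease genes ADAM9 and ADAM15 changed in opposite directions, 4.05-fold higher (adjusted p = 3.37e-06) and 2.10-fold lower (adjusted p = 3.7e-05). Of 2 other tested ADAM9 probe sets 1 was higher, and the other ADAM15 probe set was lower. SPP1, the gene of the alpha-V ligand osteopontin, averaged 7.08 ± 0.51 with the RNF43 siRNA and 8.90 ± 0.15 with the control siRNA (SD, n = 3). It fell 3.53-fold (adjusted p = 3.27e-04). Its tested probe set ends in _s_at, so the refit without such probe sets did not test SPP1. COL5A1, a fibrillar collagen chain, fell 1.80-fold (adjusted p = 6.32e-04), with both other tested probe sets lower. Adjusted p-values in these 4 lists are from limma over all 11853 genes.

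**Figure D5:**
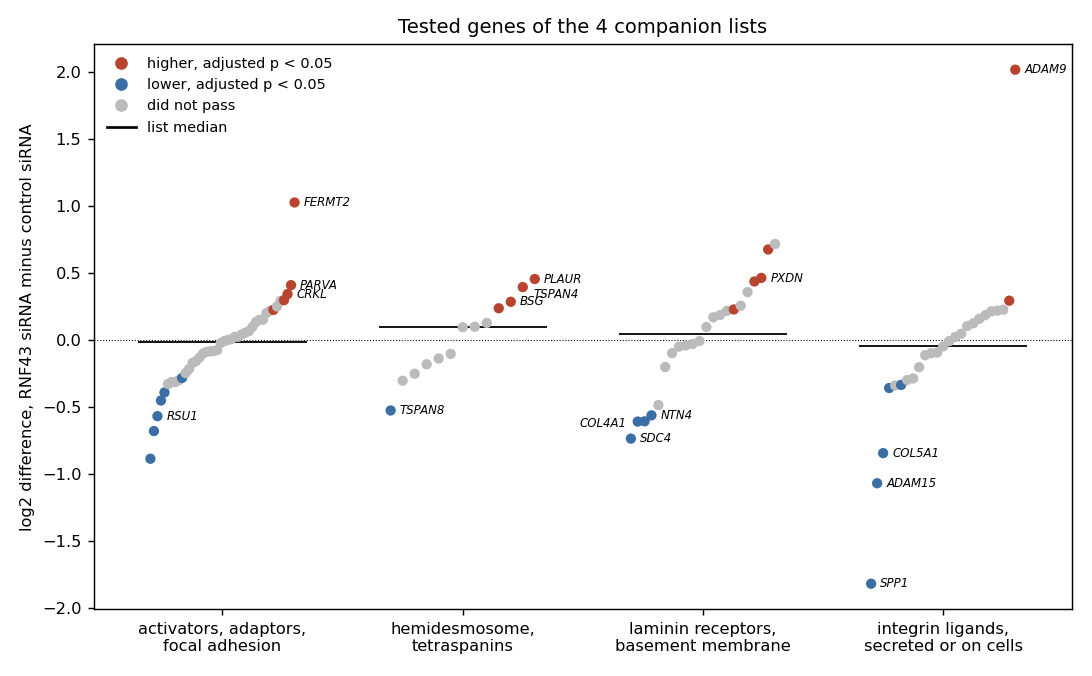
Log2 difference (RNF43 siRNA minus control siRNA, y axis) of the tested genes of the 4 partner lists (x axis), each point a gene and each bar a list median. Red and blue points passed the threshold, ADAM9 (2.02) is the highest point and SPP1 (-1.82) the lowest.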

How the data were processed

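Messenger RNA was measured in 6 samples on HG-U133 Plus 2.0 arrays, from 6 µg of total RNA each, per the labels' protocols. The deposited values are log2 signals, and MAS5 is the tool named, per the submitters' processing notes. The MAS5 version is not given in the sources used here, nor is the target of its scaling. That the scale is base 2 rests on the values, since linear means trimmed by 2% at each end then were 497.03 to 497.23. Arrays had thus been scaled already, which would hide a shift of all transcripts. MAS5 sets perfect-match against mismatch probes, so dim signals are noisy, and 391 to 628 values per array stood at 0. The number of arrays limits the precision.

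Values were used as given. Of 54613 probe sets, 41091 named 1 gene in the platform annotation, 1801 named several and 11721 were unnamed here. Symbols were updated through gene identifiers to the RefSeq table of GRCh38.p14, which matched 41037 probe sets. Each gene was read by its probe set with the highest mean over the arrays, and was tested where this exceeded log2 5.83, the median over all probe sets (the upper 50%). RNF43 was kept whatever its signal. Groups came from the titles. The test was limma 3.58.1 (R 4.3.3), a linear model with moderated variances that follow an intensity trend. Its two-sided p-values were adjusted by the Benjamini-Hochberg method, and 0.05 was the threshold. SE and 95% confidence intervals are of the log2 difference.

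Members, partner lists, markers and alternatives were chosen with earlier results of these data known. Every member is named, with all array values where it passed or its groups did not overlap. Of each partner list up to 4 genes with the smallest p among those that passed are named, and DST, PLEC and COL17A1 are named besides. The fit was tested on simulated data. The alternatives changed the scaling, a constant added to the signal, the filter, the variance model, array weights, the choice of probe set, a replicate block, the threshold and the arrays included. Choosing probe sets on the control siRNA arrays was added after the data were seen, as were the neighbouring transcripts of the closing section.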

Additional observations from a re-analysis of the deposited data

Results flagged for a closer look

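ITGB2-AS1, an antisense transcript that overlaps ITGB2 and is no member, was higher on the RNF43 siRNA arrays. On its brighter probe set it read 8.46, 8.25 and 8.20 with the RNF43 siRNA, against 7.67, 7.50 and 7.64 with the control siRNA (log2 difference 0.70, SE 0.14, limma adjusted p = 0.0101 over all 27306 tested probe sets, of which 15.5% passed). The rule took neighbouring transcripts outside the member genes that passed as higher, so ITGB1-DT, which passed as lower, was not picked. The adjusted p of ITGB2-AS1 is thus part of its selection and no further support. On the same values, and so no further support either, ITGB2-AS1 had groups that did not overlap, as had 38.9% of all tested genes. Its other probe set, above the filter only through the RNF43 siRNA arrays, missed the threshold, at a log2 difference of 1.29 (SE 0.65, adjusted p = 0.232).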

How the results depend on the processing

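In 19 refits the 9 called members gave 164 values, of which 137 kept the call, 26 lost it in the same direction and 1 turned, that of LAMC1 to a log2 difference of -0.15 with probe sets chosen on the control siRNA arrays. The uncalled members gave 253 values. Of these 2 gained a call (ITGA1 and ITGA10), and 24, in 8 genes, changed sign without passing. RSU1 reversed to 0.66 on the mean of its probe sets and PLAUR to -0.32 without probe sets ending in _x_at or _s_at. The cause was not tested. RNF43 fell short with both arrays numbered 3 left out (log2 difference 0.48, adjusted p = 0.0537).

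The 9 called members became 5 at an adjusted p under 0.01 or at 1.5-fold or more, 4 with mean probe sets and 4 without the suffixed ones. Of these, integrins higher (2) were 1, 1, 0 and 0 under those settings in turn and 1 without an intensity trend. Integrins lower (2) were 1 under each of the 4 and in the upper 30% of probe sets. Laminins higher (4) were 2 at 0.01, at 1.5-fold and without a trend, and laminins lower (1) were 0 with mean or unsuffixed probe sets. Focal adhesion genes (11) were 2 at 0.01, 3 at 1.5-fold, 5 with mean probe sets, 6 without the suffixed, 6 without a filter and 7 without a trend. Hemidesmosome and tetraspanin partners (5) were 3 at 0.01, 0 at 1.5-fold and 2 without the suffixed. Basement membrane partners (8) were 4 at 1.5-fold, and integrin ligands (7) were 4 at 1.5-fold, 4 with mean probe sets and 11 with the replicate block. Member probe sets (9) were 6 at 0.01, 5 at 1.5-fold and 4 without the suffixed. The count of all tested genes called (2684) was 1370 at 0.01, 863 at 1.5-fold and 1587 with mean probe sets.

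Leaving out each array in turn gave 5 to 8 called members, 1 to 2 integrins higher, 1 to 2 lower, 2 to 4 laminins higher and 1 lower, and 6 to 10 member probe sets. It gave 2 to 8 focal adhesion genes, 3 to 6 hemidesmosome and tetraspanin partners, 6 to 8 basement membrane partners, 6 to 8 ligands and 1741 to 2656 for all tested genes called, the lowest without RNF43 siRNA replicate 2.

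Deviations of samples with the same replicate number correlated at 0.16, 0.08 and 0.27, and those of other pairs at -0.21 to 0.09. Deviations were taken from the group mean and cancel within a group, so these correlations are not independent of one another. Array medians rose with the replicate number in both groups, at 5.89, 5.95 and 6.00 with the RNF43 siRNA and 5.96, 5.97 and 6.02 with the control siRNA. No label ties the numbers to a shared batch, and they were not taken as pairs in the main fit. Whether arrays of the same number share a batch was not tested. With the replicate block the count of all tested genes called was 3908 and that of members 10, and ITGA1 was the member gained. Members below the filter, with SDs up to 2.45, carry no test, and for tested members the confidence intervals bound differences that missed the threshold.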

Other observations

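ITGB1-DT, a divergent transcript beside ITGB1, read 5.47, 5.66 and 5.91 on the RNF43 siRNA arrays, against 6.53, 6.44 and 7.18 on the control siRNA arrays. Its groups did not overlap, as for 38.9% of all tested genes. It was 2.05-fold lower (limma adjusted p = 0.0426 over all tested probe sets, of which 15.5% passed). It passed the filter only through the control siRNA arrays (mean 6.72), as the RNF43 siRNA mean of 5.68 lay under it. A probe set annotated to both ITGB6 and LINC02478 read 6.44, 6.62 and 6.59 with the RNF43 siRNA, against 4.70, 6.04 and 5.71 with the control siRNA. It lay above the filter only through the RNF43 siRNA arrays and did not pass the test (log2 difference 1.07, SE 0.37, adjusted p = 0.0879). An ITGB2 probe set below the filter read 5.52, 5.67 and 5.32 with the RNF43 siRNA, against 3.85, 3.70 and 4.05 with the control siRNA, and was not tested.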
